A study of Mus musculus with 31 samples.

Results

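The genes that encode the proteasome, with its immunoproteasome subunits, caps and assembly factors, were followed in Ly6C-hi monocytes, a class of blood monocyte that enters inflamed tissue and tumors. The genes were taken by name from the deposited count table: every symbol that starts with Psma, Psmb, Psmc, Psmd, Psme, Psmf or Psmg followed by a digit, pseudogene names left out. This gave 50 of 24411 entries. All 3 groups were C57BL/6J mice. Healthy blood came from mice without a tumor, LLC blood from mice with subcutaneous tumors of Lewis lung carcinoma (LLC, a mouse lung cancer line that grows when injected into mice), and LLC tumor from such tumors. Cells were sorted as CD11b+ Ly6G- Ly6Chi MHC-II-, so each library holds what passed that gate in bulk. Each group had 3 RNA-seq libraries. The labels give no age, sex or time after tumor injection, and they do not say whether libraries came from separate mice or whether LLC blood and LLC tumor came from the same mice. P-values therefore measure the spread between these libraries, which may be technical.

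The proteasome degrades proteins tagged with ubiquitin. Its 20S core is a barrel of stacked rings: the alpha subunits (Psma genes) form the gates, and the beta subunits (Psmb genes) form the chamber. Psmb5, Psmb6 and Psmb7 carry the chymotrypsin-like, caspase-like and trypsin-like sites. In cells exposed to interferon-gamma, and at rest in many blood cells, Psmb8, Psmb9 and Psmb10 are built in instead of Psmb5, Psmb6 and Psmb7, and the resulting immunoproteasome cuts peptides that suit MHC class I molecules. The 19S regulatory particle (Psmc ATPases and Psmd subunits) binds, unfolds and feeds ubiquitin-tagged proteins, whereas the Psme activators open the gate without ubiquitin.

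Promoter sequences are shown for 3 genes because they hold the regions from which the subunits compared below are read. Psmb9 and Tap1, which encodes a subunit of the peptide transporter, face away from each other in the MHC region, and the whole gap between their starts is 225 bases. Psmb8 lies next to Tap1 in the same region, and Psmb5 is the constitutive partner of Psmb8. The sequences are from RefSeq (GRCm38.p6), 5′ to 3′ on the strand of the gene, each ending at the base before the start: Psmb9 at chr17:34187331-34187555 (minus strand), Psmb8 at chr17:34197995-34198194 (plus strand) and Psmb5 at chr14:54617996-54618195 (minus strand). Capitals mark a gamma-activated site (TTCNNNGAA) in Psmb8, an antioxidant response element (TGACNNNGC) in Psmb5 and a CCAAT box on the opposite strand in Psmb9.
Psmb9: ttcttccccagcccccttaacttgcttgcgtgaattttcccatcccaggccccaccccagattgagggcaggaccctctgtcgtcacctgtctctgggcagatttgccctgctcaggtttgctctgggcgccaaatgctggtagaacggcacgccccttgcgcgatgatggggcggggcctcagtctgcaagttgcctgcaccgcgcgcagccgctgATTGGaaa
Psmb8: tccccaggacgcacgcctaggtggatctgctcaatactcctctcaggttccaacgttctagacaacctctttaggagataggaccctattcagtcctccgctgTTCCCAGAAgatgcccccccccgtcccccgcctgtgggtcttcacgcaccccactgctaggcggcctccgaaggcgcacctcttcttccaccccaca
Psmb5: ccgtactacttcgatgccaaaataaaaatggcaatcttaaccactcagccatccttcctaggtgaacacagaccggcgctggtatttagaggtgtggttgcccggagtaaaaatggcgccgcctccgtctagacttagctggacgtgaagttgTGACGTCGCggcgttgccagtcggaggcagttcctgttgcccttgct
The windows searched ran from 250 bases before to 50 after each start, on both strands, and 42 of the 50 genes had one. Such a match is a description of letters and not a site at which a factor was measured. The gamma-activated site is in 8.3% of the 32851 windows in the table and in 3 of the 42 genes (Psmb8, Psmd2 and Psmg1). The antioxidant response element is in 12.4% of windows and in 6 genes, among them Psmb5 and Psmb6. An interferon-stimulated response element (GAAANNGAAA) is in 3.44% of windows and in 5 genes (Psmb3, Psmd4, Psmd9, Psme1 and Psmg4). The CCAAT box is in 37.4% of windows and in 15 genes. Psmb9 had none of these letters other than the CCAAT box. For Psmb10 no match to the 4 motifs was found, which does not tell whether it was among the 42 genes with a window.

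Library totals ran from 10457492 to 20706412 estimated counts. Values below are normalized CPM: the count is divided by the library total times the library's TMM factor and scaled to a common total. They allow a gene to be compared between libraries but, not being per length, not with another gene. TMM factors were 1.03 to 1.07 in blood and 0.798, 0.999 and 0.968 in LLC tumor 1, 2 and 3. The 50 genes took 0.453% to 0.495% of counts in healthy blood, 0.467% to 0.468% in LLC blood and 0.401% to 0.409% in LLC tumor. Tests were made with edgeR's quasi-likelihood model on all 9 libraries with Benjamini-Hochberg adjustment over the 12337 genes tested, and a gene is called, and said to rise or fall, at an adjusted p under 0.05. Of the 50 genes 49 were tested. Psmb11, the thymus-specific subunit, had 0 to 2 counts per library and was not. Psma8, a testis form of an alpha subunit, had 6 to 19, and Psmc3ip, a recombination factor that shares only the name, had 2 to 16.

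The libraries held the markers of the sorted cells: Lyz2, Csf1r, Ccr2, Ly6c2, Itgam and Cd14 were present in all 9. Their levels moved with the groups: in LLC tumor against healthy blood Ly6c2, a gene of the sorting antigen, was 4.02-fold lower and Lyz2 2.98-fold lower, while Itgam was 4.22-fold and Cd14 39.1-fold higher (edgeR adjusted p = 8.57e-05, 0.00015, 3.16e-06 and 3.29e-07). Ccr2 was 1.44-fold lower (adjusted p = 0.0448), and Csf1r was not called (log2 fold change -0.38, adjusted p = 0.11). Markers of other cells moved with the groups as well. The summed level of 12 NK and T cell genes was 259 to 632 CPM in healthy blood, 40.0 to 64.5 CPM in LLC blood and 9.91 to 19.7 CPM in LLC tumor, and 11 of the 12 were lower in LLC blood. Of 4 fibroblast genes all 4 were higher in LLC tumor than in healthy blood. Their sum was 2.84 to 14.2 CPM in healthy blood, 384 CPM in LLC blood 1 against 1.17 and 1.48 CPM in LLC blood 2 and 3, and 1054, 3259 and 3769 CPM in LLC tumor 1, 2 and 3. The sum of 4 epithelial genes was at most 0.692 CPM in blood and 12.9 to 43.0 CPM in LLC tumor, where Epcam and Krt19 were at 0 in LLC tumor 1 and 2. Neutrophil, erythroid and dendritic cell sums were 384 to 532, 0.377 to 2.59 and 5.99 to 8.34 CPM in LLC tumor against 651 to 1147, 139 to 783 and 20.3 to 48.2 CPM in blood. B cell genes summed to 167 CPM in healthy blood 2 and to at most 23.6 CPM in every other library. In bulk libraries fewer cells of a type and less RNA per cell cannot be told apart, and the part that these cells, or the shift in monocyte markers, have in the results below was not tested.

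All 3 catalytic subunits of the immunoproteasome fell in LLC tumor against both blood groups, and none of the 3 constitutive subunits they replace was called lower in the same fit. Of those 3, Psmb5 was called lower under other scaling, as given below. Psmb8, the immunoproteasome form of the chymotrypsin-like subunit, was at 272, 317 and 296 CPM in healthy blood 1, 2 and 3, at 242, 227 and 231 CPM in LLC blood and at 192, 104 and 138 CPM in LLC tumor. The 3 groups did not overlap, and LLC tumor 1 was closest to blood. Psmb8 was 1.61-fold lower in LLC tumor than in LLC blood (log2 fold change -0.69 ± 0.18 SE, adjusted p = 0.00875) and 2.04-fold lower than in healthy blood (log2 fold change -1.03 ± 0.18 SE, adjusted p = 0.000845). Psmb9, the caspase-like counterpart, was at 101, 116 and 117 CPM in healthy blood, 84.3, 79.9 and 82.0 CPM in LLC blood and 60.3, 32.2 and 42.8 CPM in LLC tumor. Again every LLC tumor library lay below every LLC blood library, and those below every healthy one. The fall from LLC blood to LLC tumor was 1.83-fold (log2 fold change -0.87 ± 0.18 SE, adjusted p = 0.00263) and that from healthy blood 2.48-fold (log2 fold change -1.31 ± 0.19 SE, adjusted p = 0.0002). Psmb10, the trypsin-like counterpart, is encoded apart from the other 2, on chromosome 8 (GRCm38.p6, 105935728 to 105938392). It was at 159.8, 167 and 165 CPM in healthy blood, 145, 123 and 132 CPM in LLC blood and 96.1, 58.2 and 70.9 CPM in LLC tumor. Its groups were ordered in the same way without overlap. Psmb10 fell 1.78-fold from LLC blood to LLC tumor (log2 fold change -0.83 ± 0.16 SE, adjusted p = 0.00124). These 3 falls in LLC tumor, against either blood group, were called under all 18 alternative settings run for each gene.

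The step from healthy blood to LLC blood was smaller for these genes and was not called. The log2 fold change was -0.34 for Psmb8 (adjusted p = 0.207), -0.44 for Psmb9 (adjusted p = 0.107) and -0.30 for Psmb10 (adjusted p = 0.192). The healthy and LLC blood libraries did not overlap for any of them. How many of all tested genes have blood groups without overlap was not counted, so this adds no test. With the 6 blood libraries alone all 3 were called lower (adjusted p = 0.0047, 0.00129 and 0.00772, in that order), and so were they without LLC tumor 1 (adjusted p = 0.012, 0.00371 and 0.0107). Psmb9 was also called without LLC tumor 2 (adjusted p = 0.0283). With all 9 libraries limma-voom called all 3 lower, and edgeR called Psmb9 with upper-quartile factors (adjusted p = 0.0448) and with library totals (adjusted p = 0.0448). The cause of these changes was not tested.

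Psmb5 was at 88.5, 93.7 and 88.5 CPM in healthy blood, 88.6, 89.2 and 89.0 CPM in LLC blood and 96.4, 73.9 and 80.0 CPM in LLC tumor. The blood libraries lay close together, and the LLC tumor libraries lay on both sides of them. Its log2 fold changes were -0.02 in LLC blood against healthy blood, -0.09 in LLC tumor against LLC blood and -0.12 in LLC tumor against healthy blood (adjusted p = 0.894, 0.409 and 0.304). Without LLC tumor 1, Psmb5 was called lower in LLC tumor against either blood group (log2 fold change -0.18, adjusted p = 0.0249, and log2 fold change -0.26, adjusted p = 0.00419). With all 9 libraries it was also called lower against either blood group with library totals (log2 fold change -0.30 and -0.30, adjusted p = 0.0018 and 0.00184) and by limma-voom, and against healthy blood with upper-quartile factors (adjusted p = 0.0228). Psmb6 was at 80.0, 79.5 and 85.7 CPM in healthy blood, 80.6, 77.8 and 80.2 CPM in LLC blood and 110.0, 80.0 and 87.4 CPM in LLC tumor, with LLC tumor 1 above the rest and LLC tumor 2 within the blood range. Its log2 fold change in LLC tumor against LLC blood was 0.22 (adjusted p = 0.113). It was called higher when LLC tumor 2 was left out (log2 fold change 0.31, adjusted p = 0.0253) and under relative log expression scaling, in edgeR or in DESeq2, and in no other alternative run. Psmb7 was at 92.6, 100.5 and 104 CPM in healthy blood, 92.1, 96.6 and 102 CPM in LLC blood and 144, 106 and 112 CPM in LLC tumor. All 3 LLC tumor libraries lay above all blood libraries, LLC tumor 1 by the widest margin. Psmb7 was called higher in LLC tumor than in LLC blood (log2 fold change 0.31 ± 0.11 SE, adjusted p = 0.0389). This call was lost under 9 of 18 alternatives, among them leaving out LLC blood 1 (adjusted p = 0.133), LLC blood 2 (0.121), LLC blood 3 (0.0637), healthy blood 1 (0.0607) or healthy blood 3 (0.0636). Psmb5 had non-whole counts in all 9 libraries, as counts of reads split between entries are.

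**Figure D1:**
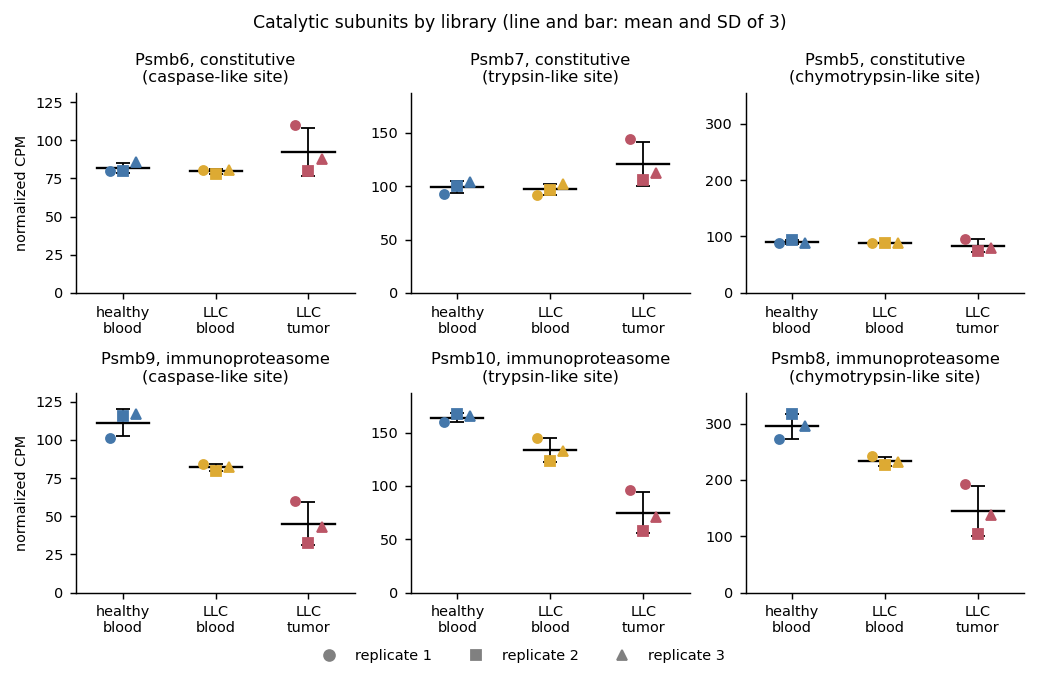
Normalized CPM of the 6 catalytic subunits in each of the 9 libraries, constitutive subunits above and their immunoproteasome counterparts below on the same scale per pair; points are libraries, and lines and bars are the mean and SD of 3. Psmb9 falls from a highest healthy value of 117 CPM to a lowest tumor value of 32.2 CPM, while Psmb6 above it stays between 77.8 and 110.0 CPM.

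The ratio of each immunoproteasome subunit to the subunit it replaces does not depend on how libraries are scaled to each other. It is a ratio of counts, not per length, so it can be compared between libraries and does not give the make-up of the particle. Psmb8 to Psmb5 was 3.08, 3.38 and 3.35 in healthy blood. It was 2.73, 2.54 and 2.59 in LLC blood, and LLC tumor had 1.99, 1.41 and 1.72. Psmb9 to Psmb6 was 1.26, 1.45 and 1.37 in healthy blood. It was 1.05, 1.03 and 1.02 in LLC blood, and LLC tumor had 0.548, 0.403 and 0.489. Psmb10 to Psmb7 was 1.73, 1.67 and 1.58 in healthy blood. It was 1.58, 1.28 and 1.29 in LLC blood, and LLC tumor had 0.667, 0.551 and 0.633. In each pair the ratio stepped down from healthy blood to LLC blood and again to LLC tumor with no overlap between groups, the narrowest gap being that of Psmb10 to Psmb7 between the lowest healthy library and LLC blood 1. How many other pairs of genes separate the groups in this way was not counted. From LLC blood to LLC tumor the mean ratio fell 1.55-fold for Psmb8 to Psmb5, 2.17-fold for Psmb9 to Psmb6 and 2.24-fold for Psmb10 to Psmb7. From healthy blood to LLC blood it was lower by 1.25-fold, 1.32-fold and 1.20-fold. All 9 differences had a two-sided exact permutation p of 0.1, the smallest that 3 libraries against 3 can give, and 0.1 after adjustment over the 9 tests, so none could pass 0.05. Across all libraries left out in turn, the log2 difference from LLC blood to LLC tumor stayed between -0.75 and -0.50 for Psmb8 to Psmb5, -1.22 and -0.99 for Psmb9 to Psmb6 and -1.22 and -1.06 for Psmb10 to Psmb7. The NK and T cell sum given above was lowest and the fibroblast sum highest in LLC tumor. Within LLC tumor the library with the lowest fibroblast sum, LLC tumor 1, had the highest of the 3 ratios in each pair. The lowest ratio was that of LLC tumor 2 in each pair, while the highest fibroblast sum was that of LLC tumor 3. Within LLC blood the library with the highest fibroblast sum, LLC blood 1, also had the highest ratio in each pair. The part of these cells in the ratios was not tested.

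**Figure D2:**
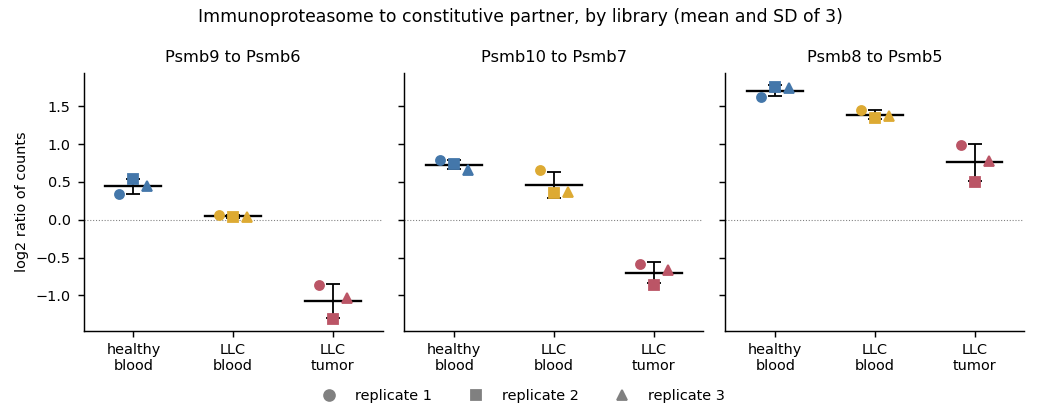
Log2 ratio of counts of each immunoproteasome subunit to its constitutive counterpart in each library; points are libraries, lines and bars are the mean and SD of 3, and the dotted line marks equal counts. In all 3 panels the healthy blood libraries lie highest and the LLC tumor libraries lowest.

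Across all the proteasome genes the blood comparison gave few calls. In LLC blood against healthy blood 5 of the 49 tested genes were called (10.2%), all 5 higher, where 23.6% of all tested genes were called, 14% higher and 9.61% lower. No proteasome gene was called lower by edgeR, 5 were lower at an unadjusted p under 0.05, and DESeq2 and limma-voom called 2 and 16 lower. Over all genes DESeq2 called 1572 of 12328 lower and limma-voom 2881 of 12337. The median log2 fold change of the 49 was -0.04 against -0.01 over all genes. In LLC tumor against LLC blood 20 were called (40.8%), 10 higher and 10 lower, against 61.3% of all tested genes, 29.6% higher and 31.7% lower; the medians were 0.05 and -0.03. In LLC tumor against healthy blood 22 were called (44.9%), 12 higher and 10 lower, against 66.5% of all tested genes, 33.5% higher and 33% lower. The comparisons share libraries, so their counts are not independent of each other. The genes with a called change at both steps were Psmd1 and Psmd2, higher at each, and Psme2b and Psme4, higher and then lower; 28 genes were called at neither step.

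The balance of higher and lower calls depended on scaling. In LLC tumor against LLC blood the split of 10 higher and 10 lower became 15 and 8 with relative log expression factors and 10 and 14 with upper-quartile factors, and 7 and 13 without the filter on low counts. Over all tested genes the main split was 3652 higher and 3914 lower. The same settings gave 3997 and 3542, 3481 and 4230, and 3949 and 4159. With library totals alone the split was 4 and 17 for the proteasome genes and 2856 and 5013 for all tested genes. The median of all genes was then -0.23. The 4 called higher were Psma6, Psmc6, Psmd2 and Psmd11. In LLC tumor against healthy blood the split of 12 and 10 became 6 and 21 with library totals, where the median of all genes was -0.17, and 9 and 18 with upper-quartile factors. Over all tested genes the split of 4137 and 4072 became 3375 and 4955 with library totals and 3725 and 4726 with upper-quartile factors. Of the 49 tested genes, 39 had their highest tumor value in LLC tumor 1, the library with the TMM factor of 0.798. The same count over all tested genes was not made.

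**Figure D3:**
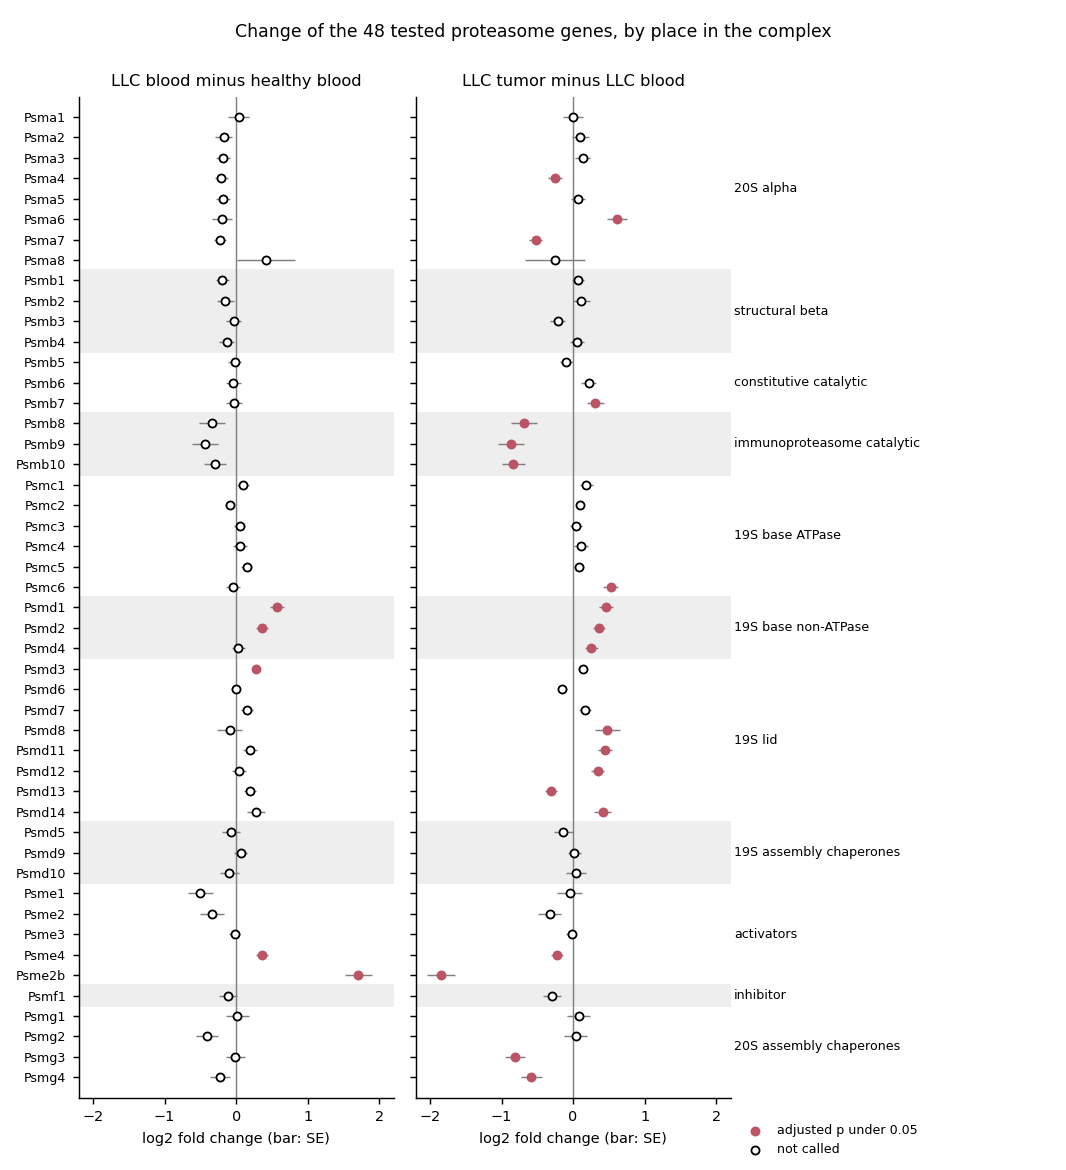
Log2 fold change of each tested proteasome gene other than Psmc3ip in LLC blood against healthy blood (left) and LLC tumor against LLC blood (right), grouped by place in the complex; bars are the SE, filled points are called at an adjusted p under 0.05. On the right the immunoproteasome subunits lie at -0.87 to -0.69, and all 3 of the 19S base subunits that are not ATPases lie above 0.

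In the 20S core outside the catalytic subunits few genes moved. In LLC blood against healthy blood edgeR called none of the 8 alpha genes, with 2 lower at an unadjusted p under 0.05, and DESeq2 and limma-voom called 1 and 6 lower. EdgeR called none of the 4 structural beta genes in any comparison, and neither did DESeq2. At an unadjusted p under 0.05, 1 was lower, in LLC tumor against healthy blood. Limma-voom called 3 of the 4 lower in LLC blood against healthy blood, 1 in LLC tumor against LLC blood and 4 in LLC tumor against healthy blood. Of 12337 genes it called 2881, 4622 and 4691 lower, in that order. Psma7, an alpha subunit, was at 259, 261 and 287 CPM in healthy blood, 236, 225 and 228 CPM in LLC blood and 179, 146 and 154 CPM in LLC tumor. The groups did not overlap. The fall was called from LLC blood to LLC tumor (log2 fold change -0.53 ± 0.09 SE, adjusted p = 0.000686) and from healthy blood to LLC tumor (log2 fold change -0.75 ± 0.09 SE, adjusted p = 6.44e-05). Psma6, another alpha subunit, went the other way, with 86.9, 107 and 111 CPM in healthy blood, 88.4, 86.2 and 90.9 CPM in LLC blood and 165, 118 and 122 CPM in LLC tumor. Every LLC tumor library was above every blood library (LLC tumor against LLC blood, log2 fold change 0.61 ± 0.14 SE, adjusted p = 0.00389). Against healthy blood the rise of Psma6 (log2 fold change 0.41 ± 0.14 SE, adjusted p = 0.0255) was lost without LLC tumor 1 (adjusted p = 0.0668) or healthy blood 1 (adjusted p = 0.11), with library totals (log2 fold change 0.22, adjusted p = 0.068) and with the replicate number as a block in the 6 libraries. Psma4 was called lower in LLC tumor than in LLC blood (log2 fold change -0.25 ± 0.09 SE, adjusted p = 0.0396). The call was lost under 11 of 18 alternatives, 6 of which left out 1 library, with an adjusted p of up to 0.125. Its fall from healthy blood was larger (log2 fold change -0.46 ± 0.09 SE, adjusted p = 0.00178). The structural beta genes lay between -0.21 (Psmb3) and 0.12 (Psmb2) in LLC tumor against LLC blood and between -0.19 (Psmb1) and -0.04 (Psmb3) in blood. Without LLC tumor 1, Psmb3 was called lower in LLC tumor against LLC blood (log2 fold change -0.29, adjusted p = 0.0128). In that fit Psma2 to Psma7, Psmb1, Psmb2 and Psmb4 were called lower in LLC blood against healthy blood, as were 2883 of 12864 genes. In LLC tumor against healthy blood it added Psma2, Psma5 and Psmb1 to Psmb4 to the lower calls, where 4736 of 12864 genes were lower.

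The 19S regulatory particle was where most of the higher calls lay. In LLC blood 3 of its 17 genes rose (17.6%, near the 14% of all tested genes). In LLC tumor against LLC blood 8 rose (47.1%, against 29.6% of all tested genes) and 1 fell (5.88%, against 31.7%). That split of 8 and 1 became 3 higher and 3 lower with library totals and 12 and 1 with DESeq2. Over all tested genes these settings gave 2856 and 5013, and 4027 and 3546. Against healthy blood 11 of the 17 rose in LLC tumor (64.7%, against 33.5% of all tested genes), with a median log2 fold change of 0.32. None fell by edgeR with TMM factors or by DESeq2 (1 at an unadjusted p under 0.05, and 2 by limma-voom). Here edgeR with upper-quartile factors gave 8 higher and 2 lower, and with library totals 6 higher and 2 lower, the 2 being Psmd6 and Psmd13. Over all tested genes these settings gave 3725 and 4726, and 3375 and 4955. Psmd1, a scaffold of the base, was at 58.2, 66.1 and 65.4 CPM in healthy blood, 80.9, 103 and 97.4 CPM in LLC blood and 130.4, 132 and 125 CPM in LLC tumor. The 3 groups were ordered without overlap, and both steps were called (LLC blood against healthy blood, log2 fold change 0.57 ± 0.10 SE, adjusted p = 0.00349; LLC tumor against LLC blood, log2 fold change 0.46 ± 0.10 SE, adjusted p = 0.00246). Over both steps Psmd1 was 2.04-fold higher, the largest rise among the proteasome genes in LLC tumor against healthy blood (log2 fold change 1.03 ± 0.10 SE, adjusted p = 1.6e-05). Psmd2, the other large scaffold of the base and a docking site for ubiquitin carriers, was at 164, 169 and 179.7 CPM in healthy blood, 217, 221 and 218 CPM in LLC blood and 311, 260.3 and 269 CPM in LLC tumor. It rose at both steps as well, without overlap between groups (LLC blood against healthy blood, log2 fold change 0.35 ± 0.08 SE, adjusted p = 0.0145; LLC tumor against LLC blood, log2 fold change 0.36 ± 0.08 SE, adjusted p = 0.00448). The blood call of Psmd2 was lost without healthy blood 1 (adjusted p = 0.0636), healthy blood 2 (0.0824), LLC blood 2 (0.056) or LLC blood 3 (0.0511), and under library totals the tumor step of Psmd1 was not called (log2 fold change 0.27, adjusted p = 0.0711).

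Psmd4, the ubiquitin receptor of the base, was at 96.9, 97.9 and 99.8 CPM in healthy blood, 103, 93.6 and 104 CPM in LLC blood and 137, 109 and 113 CPM in LLC tumor. All LLC tumor libraries lay above the blood libraries (log2 fold change 0.25 ± 0.09 SE, adjusted p = 0.0357 against LLC blood). The call was lost under 8 of 18 alternatives, including without LLC blood 1, 2 or 3 or healthy blood 1 or 3 (adjusted p = 0.072, 0.184, 0.0644, 0.0669 and 0.0664). Among the 6 ATPase genes of the base, which unfold the substrate, edgeR with TMM factors called 1 in LLC tumor against LLC blood, Psmc6. It was higher (16.7%, against 29.6% of all tested genes). DESeq2 called 3 higher, and Psmc1 and Psmc2 were called higher with relative log expression factors as well. Psmc6 was at 62.9, 66.4 and 69.9 CPM in healthy blood, 61.4, 67.4 and 63.8 CPM in LLC blood and 106, 87.4 and 83.3 CPM in LLC tumor. Blood libraries overlapped and all LLC tumor libraries were above them (log2 fold change 0.52 ± 0.10 SE, adjusted p = 0.00135). The other 5 ATPase genes lay between 0.04 (Psmc3) and 0.18 (Psmc1) in that comparison. In blood the ATPase genes ran from -0.09 (Psmc2) to 0.15 (Psmc5), none called by edgeR, DESeq2 or limma-voom and none at an unadjusted p under 0.05. In LLC tumor against healthy blood 3 of 6 rose (50%, against 33.5% of all tested genes), from 0.23 (Psmc5) to 0.47 (Psmc6). The rise of Psmc5 was lost under 9 of 18 alternatives (with library totals, log2 fold change 0.06, adjusted p = 0.573) and that of Psmc1 under 5 (with library totals, 0.10, adjusted p = 0.303), among them without healthy blood 1 for both. Psmc5 lost it without healthy blood 3, LLC blood 2, LLC tumor 1 or LLC tumor 3 as well.

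The lid, which recognises and removes ubiquitin, was mixed. Psmd14, the deubiquitinating enzyme of the lid, was at 46.3, 58.8 and 61.0 CPM in healthy blood, 62.0, 69.7 and 69.3 CPM in LLC blood and 102, 84.0 and 82.1 CPM in LLC tumor, and no groups overlapped. Its rise was called from LLC blood to LLC tumor (log2 fold change 0.41 ± 0.12 SE, adjusted p = 0.016) and from healthy blood (log2 fold change 0.69 ± 0.12 SE, adjusted p = 0.000898). The former was lost without LLC blood 1 (adjusted p = 0.0662) and with library totals (log2 fold change 0.21, adjusted p = 0.121). Psmd11, a lid subunit, was at 45.6, 46.6 and 42.3 CPM in healthy blood, 50.3, 50.6 and 53.2 CPM in LLC blood and 80.5, 65.8 and 63.1 CPM in LLC tumor. The groups were ordered without overlap (log2 fold change 0.44 ± 0.10 SE, adjusted p = 0.00365 in LLC tumor against LLC blood). Psmd3, a lid subunit, was the third gene to rise in LLC blood, from 79.4, 82.4 and 79.5 CPM to 101, 95.7 and 95.2 CPM (log2 fold change 0.27 ± 0.06 SE, adjusted p = 0.0113). There was no further call to the 104, 106 and 110.3 CPM of LLC tumor (log2 fold change 0.13, adjusted p = 0.0845). That blood call was lost without healthy blood 2 (adjusted p = 0.0803) or healthy blood 3 (0.0521), and without LLC tumor 1 the tumor step was called (0.0301). Psmd8 was at 180.4, 186 and 183 CPM in healthy blood, 176, 169.7 and 169 CPM in LLC blood and 328, 189 and 202 CPM in LLC tumor. LLC tumor 1 stood far above the other 2 tumor libraries. The call (log2 fold change 0.48 ± 0.18 SE, adjusted p = 0.0413) was lost under 8 of 18 alternatives, among them without LLC blood 1, 2 or 3 or healthy blood 1 or 3 (adjusted p up to 0.113 over the libraries left out; log2 fold change 0.25, adjusted p = 0.0771 with library totals). Psmd12 rose in LLC tumor against LLC blood (log2 fold change 0.34 ± 0.10 SE, adjusted p = 0.0116), though not without LLC blood 3 (adjusted p = 0.056) or with library totals (log2 fold change 0.14, adjusted p = 0.265).

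Of the 17 genes of the regulatory particle, Psmd13 was the 1 called lower in LLC tumor than in LLC blood by edgeR with TMM factors. Limma-voom called 2 lower, and library totals gave 3 lower (Psmc3, Psmd6 and Psmd13). This lid subunit was at 88.4, 92.3 and 96.7 CPM in healthy blood, 101, 108 and 109 CPM in LLC blood and 95.4, 82.0 and 79.7 CPM in LLC tumor. LLC blood was highest without overlap, and LLC tumor overlapped healthy blood (log2 fold change -0.31 ± 0.08 SE, adjusted p = 0.00971 against LLC blood, log2 fold change -0.11 and adjusted p = 0.263 against healthy blood). The fall of Psmd13 was called whichever library was left out, and not in the fit of the 6 libraries with the replicate number as a block (adjusted p = 0.0618). Psmd6, another lid subunit, was lowest against healthy blood (log2 fold change -0.16, adjusted p = 0.0645) and was called without LLC tumor 1 (adjusted p = 0.0176) or LLC blood 2 (adjusted p = 0.0483). None of the 3 assembly chaperones of the base, Psmd5, Psmd9 and Psmd10, was called in any comparison by edgeR, DESeq2 or limma-voom, or was under 0.05 unadjusted, with log2 fold changes from -0.21 (Psmd5) to 0.08 (Psmd9) in LLC tumor against healthy blood.

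**Figure D4:**
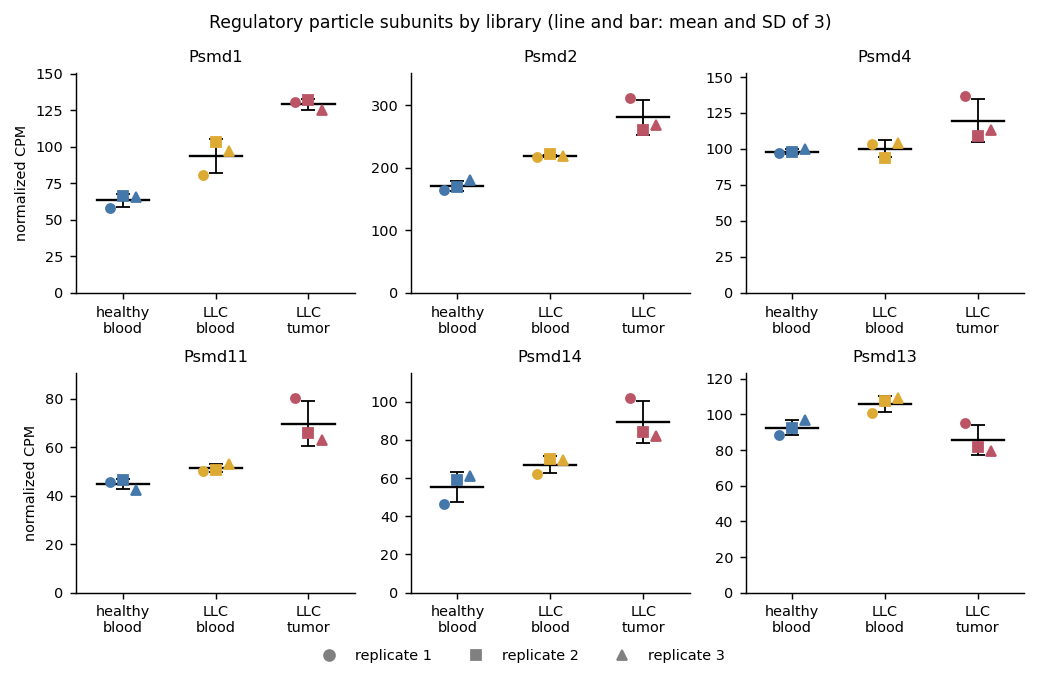
Normalized CPM of 6 subunits of the 19S regulatory particle in each library; points are libraries, lines and bars the mean and SD of 3. Psmd1 climbs from 58.2 CPM in healthy blood 1 to 132 CPM in LLC tumor 2, and Psmd13 is highest in LLC blood.

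The gate activators followed no common course. Psme1 and Psme2, which together form the interferon-inducible cap and lie near each other on chromosome 14, had lower values in both tumor-bearing groups than in healthy blood when each was counted alone. Psme1 was at 249, 254 and 237 CPM in healthy blood, 189, 157 and 176 CPM in LLC blood and 222, 126 and 157 CPM in LLC tumor. All healthy libraries lay above the rest, and LLC tumor spanned the LLC blood range (LLC tumor against LLC blood, log2 fold change -0.05, edgeR adjusted p = 0.824). Psme1 was called lower in LLC tumor than in healthy blood (log2 fold change -0.55 ± 0.18 SE, adjusted p = 0.0197), not without LLC tumor 3 (adjusted p = 0.0647). The step to LLC blood (log2 fold change -0.50 ± 0.18 SE, adjusted p = 0.0675) missed the threshold. It was called under 9 of 18 alternatives, with the 6 blood libraries alone (adjusted p = 0.0012), without LLC tumor 1 (0.00226) and without LLC tumor 2 (0.0221) among them. Psme2 was at 165, 201 and 201 CPM in healthy blood, 154, 143 and 151 CPM in LLC blood and 151, 89.0 and 117 CPM in LLC tumor. Its log2 fold change was -0.34 in LLC blood against healthy blood (adjusted p = 0.17; 0.00994 with the 6 blood libraries alone). It was -0.33 in LLC tumor against LLC blood (adjusted p = 0.113; 0.00462 without LLC tumor 1) and -0.67 in LLC tumor against healthy blood (adjusted p = 0.00579).

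Psme2b is a second entry for the same activator subunit, a near-identical copy on chromosome 11 (GRCm38.p6, 48945345 to 48946410), and both had non-whole counts in all 9 libraries, as counts of shared reads that were split between entries are. Psme2b was at 12.4, 18.1 and 12.3 CPM in healthy blood, 43.1, 45.2 and 51.5 CPM in LLC blood and 15.8, 13.0 and 10.3 CPM in LLC tumor. LLC blood stood alone, 3.26-fold above healthy blood (log2 fold change 1.70 ± 0.19 SE, adjusted p = 0.000405) and 3.60-fold above LLC tumor (log2 fold change -1.85 ± 0.19 SE, adjusted p = 3.21e-05). Its share of the summed counts of Psme2 and Psme2b was 6.98%, 8.28% and 5.77% in healthy blood. It was 21.9%, 24.0% and 25.4% in LLC blood, and LLC tumor had 9.49%, 12.7% and 8.03%. The sum was 178, 219 and 214 CPM in healthy blood, 197, 189 and 203 CPM in LLC blood and 167, 102 and 128 CPM in LLC tumor. The pair was also counted as 1 gene in the same edgeR model, a choice made after the values had been seen. It was not called in LLC blood (log2 fold change -0.053 ± 0.16 SE, adjusted p = 0.841) and fell from LLC blood to LLC tumor (-0.57 ± 0.16 SE, adjusted p = 0.0114). The rise of Psme2b in LLC blood and the lower value of Psme2 there are therefore both uncertain, since the summed LLC blood values lay within the healthy range.

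Psme3, the activator found mainly in the nucleus, was level: its log2 fold changes were -0.02, -0.02 and -0.04 in LLC blood against healthy blood, LLC tumor against LLC blood and LLC tumor against healthy blood (adjusted p = 0.856, 0.819 and 0.622). Psme4, the large activator linked to histone turnover, was at 128, 124 and 131 CPM in healthy blood, 148, 167 and 174 CPM in LLC blood and 148, 141 and 129 CPM in LLC tumor. LLC blood lay above healthy blood without overlap, and LLC tumor lay between, overlapping healthy blood. The rise in LLC blood was called (log2 fold change 0.36 ± 0.08 SE, adjusted p = 0.0134), not without healthy blood 2 (adjusted p = 0.0857), LLC blood 2 (0.0602) or LLC blood 3 (0.0642). The fall to LLC tumor (log2 fold change -0.23 ± 0.08 SE, adjusted p = 0.0367) was lost under 10 of 18 alternatives, 5 of which left out 1 library (healthy blood 2, LLC blood 2 or 3, or LLC tumor 2 or 3; adjusted p up to 0.134).

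**Figure D5:**
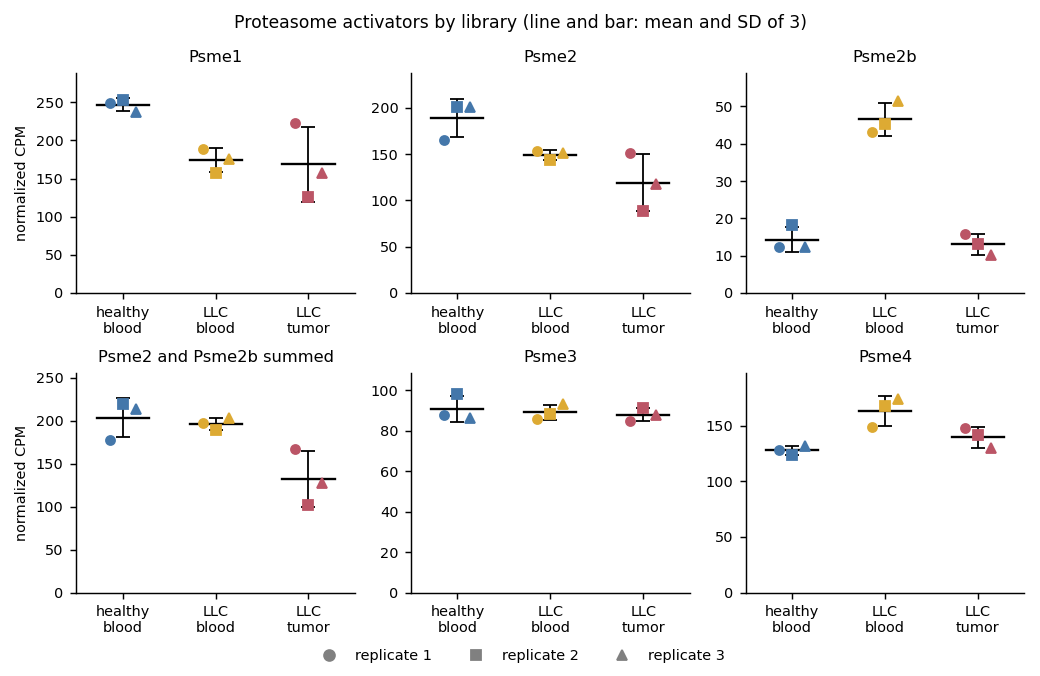
Normalized CPM of the Psme activator genes, and of Psme2 and Psme2b summed, in each library; points are libraries, lines and bars the mean and SD of 3. Psme2b is high in LLC blood alone, at 43.1 to 51.5 CPM, and the sum with Psme2 is not.

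Psmf1, an inhibitor and adaptor of the core, was called lower in LLC tumor than in healthy blood (log2 fold change -0.41 ± 0.13 SE, adjusted p = 0.0174), from 30.1, 29.9 and 26.3 CPM to 21.4, 18.6 and 25.1 CPM. The call was lost without LLC tumor 2 (adjusted p = 0.0621). The assembly chaperones of the alpha ring act as pairs, Psmg1 with Psmg2 and Psmg3 with Psmg4. Psmg3 was at 15.3, 14.4 and 13.5 CPM in healthy blood, 16.4, 13.1 and 13.4 CPM in LLC blood and 7.69, 7.63 and 9.02 CPM in LLC tumor. Blood libraries overlapped, and all LLC tumor libraries were 1.75-fold below LLC blood on average (log2 fold change -0.81 ± 0.13 SE, adjusted p = 0.000583). Psmg4 was at 18.0, 20.9 and 18.9 CPM in healthy blood, 17.0, 15.3 and 17.1 CPM in LLC blood and 13.6, 10.0 and 9.56 CPM in LLC tumor. LLC tumor was below blood in every library (log2 fold change -0.58 ± 0.14 SE, adjusted p = 0.00597). Psmg1 was at 8.30, 7.23 and 8.72 CPM in healthy blood, 8.36, 8.17 and 7.97 CPM in LLC blood and 7.12, 10.0 and 8.66 CPM in LLC tumor. The groups overlapped throughout (log2 fold change 0.08 in LLC tumor against LLC blood, adjusted p = 0.681). Psmg2 was not called either (log2 fold change 0.03, adjusted p = 0.862). In LLC blood against healthy blood it was at -0.41 (adjusted p = 0.0845, and 0.0193 without LLC tumor 1). Pomp, outside the naming rule, is the maturation factor that completes the core. It was at 202, 204 and 216 CPM in healthy blood, 178, 156 and 173 CPM in LLC blood and 158, 115 and 118 CPM in LLC tumor. It fell from LLC blood to LLC tumor (log2 fold change -0.37 ± 0.12 SE, adjusted p = 0.0221).

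The 18 proteasome partners outside the naming rule included shuttle factors, deubiquitinating enzymes and the Vcp segregase. In LLC blood 2 rose (11.1%, against 14% of all tested genes) and 1 fell (5.56%, against 9.61%). In LLC tumor against LLC blood 8 rose (44.4%, against 29.6%) and 1 fell (5.56%, against 31.7%). Ecpas (AI314180 in the table), an adaptor of the whole particle, rose at both steps. It went from 79.6, 78.3 and 80.6 CPM in healthy blood through 105, 121 and 120.2 CPM in LLC blood to 131, 162 and 139 CPM in LLC tumor (LLC blood against healthy blood, log2 fold change 0.54 ± 0.09 SE, adjusted p = 0.00334). Vcp rose and Akirin2, which brings proteasomes into the nucleus, fell in LLC blood (log2 fold change 0.28 and -0.35, adjusted p = 0.0223 and 0.0122). Zfand2a, a stress-induced partner of the regulatory particle, was at 15.5, 13.9 and 14.8 CPM in LLC blood and 305, 145 and 167 CPM in LLC tumor (log2 fold change 3.81 ± 0.26 SE, adjusted p = 2.74e-06). Zfand5, which binds and activates the particle, and Rad23b, a shuttle for ubiquitin-tagged proteins, rose in LLC tumor against LLC blood by 1.05 and 0.86 on the log2 scale (adjusted p = 0.000213 and 0.000116). Within LLC tumor, Zfand2a was highest in LLC tumor 1.

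Nfe2l1 encodes the transcription factor that raises proteasome genes when the proteasome is overloaded. It was at 84.8, 82.1 and 80.1 CPM in healthy blood, 89.4, 86.6 and 89.8 CPM in LLC blood and 126, 137 and 136 CPM in LLC tumor. LLC tumor lay above all blood libraries (log2 fold change 0.59 ± 0.06 SE, adjusted p = 3.99e-05). Of the 7 genes of that axis 2 rose in LLC blood (28.6%, against 14% of all tested genes). In LLC tumor against LLC blood 4 rose (57.1%, against 29.6%) and 2 fell (28.6%, against 31.7%). Maff, a small partner of Nfe2l1, rose most there (log2 fold change 6.16 ± 0.47 SE, adjusted p = 4.69e-06), followed by its relative Mafk (log2 fold change 0.78, adjusted p = 0.0315), and Mafg rose at both steps (log2 fold change 0.55 and then 0.41, adjusted p = 0.0163 and 0.023). Ddi2, the protease that activates Nfe2l1, was at 33.5, 40.0 and 27.6 CPM in healthy blood, 141, 207 and 218 CPM in LLC blood and 90.3, 101 and 93.1 CPM in LLC tumor. It spans the gene Rsc1a1 in GRCm38.p6, so the source of its reads is uncertain (log2 fold change 2.49 ± 0.18 SE, adjusted p = 5.43e-05 in LLC blood against healthy blood). Of 6 genes of ubiquitin supply 1 rose in LLC blood (16.7%, against 14% of all tested genes) and 2 fell (33.3%, against 9.61%). In LLC tumor against LLC blood 3 rose (50%, against 29.6%), with log2 fold changes of up to 1.37, and none fell. Not every one of these is named here. Of the genes for ubiquitin itself, the polyubiquitin gene Ubb rose in LLC tumor against LLC blood (0.71, adjusted p = 0.00835). Rps27a, which fuses ubiquitin to a ribosomal protein, fell in LLC blood against healthy blood (-0.62, adjusted p = 0.00989). Of the ubiquitin-activating enzymes Uba6 rose in LLC blood (0.71, adjusted p = 0.00581) and Uba1 in LLC tumor against LLC blood (0.25, adjusted p = 0.0351).

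Downstream of the proteasome, peptidases trim or destroy its products and the peptide-loading machinery carries them to MHC class I. Of 7 peptidase genes 3 rose in LLC blood (42.9%, against 14% of all tested genes). They were Nln, Erap1 and Tpp2 (log2 fold change 0.61, 0.59 and 0.30, edgeR adjusted p = 0.0181, 0.00727 and 0.0118). In LLC tumor against LLC blood 2 rose (28.6%, against 29.6%) and 2 fell (28.6%, against 31.7%). Npepps, a cytosolic aminopeptidase, went from 60.0, 65.5 and 72.2 CPM in LLC blood to 259, 221 and 213 CPM in LLC tumor (log2 fold change 1.81 ± 0.10 SE, adjusted p = 6.76e-07). Thop1, which destroys peptides in the cytosol, rose too (log2 fold change 1.06 ± 0.18 SE, adjusted p = 0.000694). Of 9 peptide-loading genes 4 fell in LLC blood (44.4%, against 9.61% of all tested genes) and none rose by any of the 3 tools. H2-K1, B2m and H2-D1 had log2 fold changes there of -0.83, -0.77 and -0.51 (edgeR adjusted p = 0.0171, 0.0478 and 0.0462). In LLC tumor against LLC blood 2 fell (22.2%, against 31.7% of all tested genes), Tapbpl and Tapbp (-0.90 and -0.53, edgeR adjusted p = 4.75e-05 and 0.0151). Tap1, whose start is 225 bases from that of Psmb9, was at 326, 342 and 358 CPM in healthy blood, 252, 239 and 238 CPM in LLC blood and 251, 127 and 167 CPM in LLC tumor. LLC tumor 1 reached the LLC blood level and the other 2 tumor libraries lay below it. Tap1 was not called in LLC tumor against LLC blood (log2 fold change -0.42 ± 0.20 SE, adjusted p = 0.0958) but was against healthy blood (log2 fold change -0.91 ± 0.20 SE, adjusted p = 0.00294). Whether Tap1 and Psmb9 differ in their change was not tested.

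The interferon axis that induces the immunoproteasome and its cap was mostly lower in LLC tumor. Against LLC blood 9 of 11 genes fell (81.8%, where 31.7% of all tested genes fell) and 1 rose (9.09%, where 29.6% rose). EdgeR called none in LLC blood against healthy blood, where 3 had an unadjusted p under 0.05 (1 higher, 2 lower), DESeq2 called 2 lower and limma-voom called 3 higher and 4 lower. Irf1, a transcription factor that drives Psmb8, Psmb9 and Psmb10, was at 261, 303 and 280.1 CPM in healthy blood, 197, 162 and 179 CPM in LLC blood and 147, 61.1 and 87.6 CPM in LLC tumor. Its 3 groups did not overlap, and LLC tumor was lowest (log2 fold change -0.87 ± 0.26 SE, edgeR adjusted p = 0.015 against LLC blood). Whether Irf1 has a part in the falls of Psmb8, Psmb9 and Psmb10 was not tested. Ciita, the MHC class II activator, had the largest fall (log2 fold change -2.10 ± 0.23 SE, adjusted p = 4.14e-05), and Jak2, a kinase of the receptor, rose (log2 fold change 1.25 ± 0.12 SE, adjusted p = 1.94e-05). Cells were sorted as MHC-II-, and whether that gate bears on Ciita or the other genes of this axis was not tested. In Irf1 LLC tumor 1 was the highest and LLC tumor 2 the lowest tumor library. Most proteasome genes had their highest tumor value in LLC tumor 1 (39 of 49), and 27 of 49 had their lowest in LLC tumor 2. How many of all tested genes share this order was not counted, so it is not given as a trait of the proteasome genes.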

How the data were processed

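RNA-seq was analysed in 9 libraries; the other 22 samples of the series (ATAC-seq, CUT&Run, CUT&Tag) were not analysed here. The authors deposited estimated counts (expected counts, not normalized) per gene symbol. The submitters' processing notes name Trim Galore, cutadapt 3.4, STAR 2.6.1d, Salmon 1.9.0, edgeR and the build mm10, without their order. Column heads of the blood libraries carry BM, read as blood monocyte because the titles name blood. Counts were rounded and fitted on all 9 libraries with edgeR 4.0.16 (R 4.3.3; quasi-likelihood, group as the only term, TMM, filterByExpr), with p-values adjusted by Benjamini-Hochberg within each of the 3 comparisons. Levels and ratios use unrounded counts. The fit was tested on simulated counts. Alternatives were other scaling factors, no filter, DESeq2 1.42.0, limma-voom (limma 3.58.1), only the 6 libraries compared, a replicate block, stricter thresholds and each library left out.

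Genes were named by role (catalytic subunits, activators, inhibitor, assembly chaperones), by the highest and lowest change in each other subgroup, and, in other lists, by up to 3 called genes with the largest change per comparison plus Pomp, Nfe2l1, Irf1 and Tap1. Some genes of the lists are not reported here. Psma4, Psmd2, Psmd3, Psmd11, Psmd12 and Psmc1 were added after their values were seen. Members and lists were chosen with earlier results of these data known. Of 19 listed partners Paaf1 was not used here. Gene positions and promoters are from RefSeq (GRCm38.p6) by symbol, and all 50 members had a position.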

Additional observations from a re-analysis of the deposited data

How the results depend on the processing

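Of the 49 tested genes in 3 comparisons (147 fold changes), 47 were called. Under the 18 alternative fits 27 of these calls held in every one, 20 were lost in at least one and none changed sign. Of the 100 uncalled fold changes 47 changed sign and 46 were called with their own sign in some alternative. The count of 5 called in LLC blood against healthy blood became 10 with upper-quartile factors, 9 with library totals, 24 with limma-voom, 17 with the 6 blood libraries alone, 2 at an adjusted p under 0.01 and 1 where a change of 1 or more on the log2 scale was asked for. The shares of all tested genes called there were 26.1%, 22.6%, 47.7%, 42.3%, 11.2% and 6.23%, in that order, against 23.6% in the main fit. As single libraries were left out the count of proteasome genes ran from 2, with healthy blood 2 missing, up to 22 with LLC tumor 1 missing (5 higher and 17 lower), and was 3 without LLC blood 2 or LLC blood 3. All tested genes were called at 14.8%, 39.4%, 11.7% and 12.4% in those fits, in that order. The 20 called in LLC tumor against LLC blood became 13 at an adjusted p under 0.01 and 1 at a log2 fold change of 1, with 14 (without LLC blood 3) to 25 (without LLC tumor 1) as libraries were left out. For all tested genes the shares were 48.3%, 28.7%, 54.4% and 67.1%, in that order. The 22 called in LLC tumor against healthy blood became 4 at a log2 fold change of 1, and 18 with healthy blood 1 missing up to 28 with LLC tumor 1 missing. For all tested genes the shares were 32.3%, 61.1% and 73.3%, in that order. In LLC blood against healthy blood the split of 5 higher and 0 lower became 5 and 5 with upper-quartile factors, 6 and 3 with library totals and 8 and 16 with limma-voom. Over all tested genes these settings gave 1490 and 1727, 1640 and 1149, and 3003 and 2881. Psmb4 and Psmc3, not called in LLC tumor against LLC blood, were called lower with library totals (-0.16 and -0.16 on the log2 scale), and Psme2b, counted together with Psme2, was at a log2 fold change of -0.053 in LLC blood against healthy blood. The causes were not tested.

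With the replicate number as a replicate block, 6, 18 and 22 proteasome genes were called in the 9-library fit (LLC blood against healthy blood, LLC tumor against LLC blood, LLC tumor against healthy blood) and 17, 16 and 17 in the fit of the 6 libraries compared. For all tested genes the shares were 22.6%, 60.4% and 65.6% in the former and 41.7%, 55.4% and 59.3% in the latter. The deviations of same-numbered libraries correlated at 0.30, 0.16 and 0.05 across genes between healthy and LLC blood. They correlated at -0.01, 0.16 and -0.11 between LLC blood and LLC tumor, and at 0.06, 0.02 and 0.09 between healthy blood and LLC tumor. Between healthy and LLC blood, libraries of unlike number correlated at -0.31 to 0.19. LLC blood 1 correlated with healthy blood 2 and 3 at -0.18 and -0.16. Deviations from a mean of 3 libraries cancel out within a group, so these 2 values follow in part from the 0.30 and add nothing to it. Whether the 2 blood libraries numbered 1 share more than a number was not tested. Not every library correlated best with its own number, and the number was left out of the main fit. All 9 ratio differences kept their sign with 1 count added and with each library left out. At 3 libraries a group an exact test of 1 ratio cannot pass 0.05.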
